A study of Rattus norvegicus with 8 samples.

Results

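The genes described here encode the enzymes that build triglyceride and those that break it down, with the cofactors of the first lipase. They were chosen by name, and a member was taken where a probe set of the array carried exactly 1 gene symbol equal to that name. All 10 genes were found among 14497 named genes, each with 1 probe set of 28826. Total RNA of the left ventricle was measured on Affymetrix arrays; the rats were females late in pregnancy. Every heart underwent ischemia and reperfusion (I/R), so that procedure is shared by both groups. The extent of injury is not among the values used here. In 3 samples reperfusion came with vehicle (placebo), and in 5 samples with a bolus of 5 mg/kg of the treatment labelled ILPD. The design text writes ITLD and the series title names Intralipid, a lipid emulsion for infusion, and the abbreviations are taken here to mean the same treatment. Uninjured or non-pregnant hearts were not analysed here, and the labels do not state that each sample came from a separate animal, so p-values reflect only the variation among these samples, which may be technical.

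Triglyceride is assembled on a glycerol backbone. Gpam adds the first fatty acid to glycerol phosphate, Agpat2 the next, Lpin1 removes the phosphate to leave diacylglycerol, and Dgat1 or Dgat2 adds the last fatty acid. Breakdown runs the other way: Pnpla2 (ATGL) cuts triglyceride, Lipe (hormone-sensitive lipase) cuts diacylglycerol and Mgll cuts monoglyceride. Abhd5 (CGI-58) switches Pnpla2 on and G0s2 inhibits it. In heart muscle the droplet pool turns over between arriving fatty acids and oxidation.

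The values are log2 signals, with array medians between 7.08 and 7.20. Differences are ILPD minus placebo on that log2 scale, from limma fitted to all probe sets, with Benjamini-Hochberg adjustment over all of them and a threshold of 0.05. None of the 10 members passed the test (0 higher and 0 lower in limma), where 2.81% of all probe sets did. At an adjusted p under 0.1 there was 1 member, Mgll, against 6.09% of all probe sets, and Mgll was also the 1 member with an unadjusted p under 0.05, against 18.3%. Groups did not overlap for 1 of 10 members, against 12.4% of all probe sets in either direction and 7.95% in the upward direction. Each of these shares from 10 genes is near or below its background. The members' differences lay between -0.21 for Dgat1 and 0.31 for Mgll, and their 95% intervals between -0.60 and 0.69. The median size of a difference, whatever its sign, was 0.20 for the members and 0.08 for all probe sets. The 0.08 covers probe sets of all brightness, and the size among probe sets as bright as the members was not computed.

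**Figure D1:**
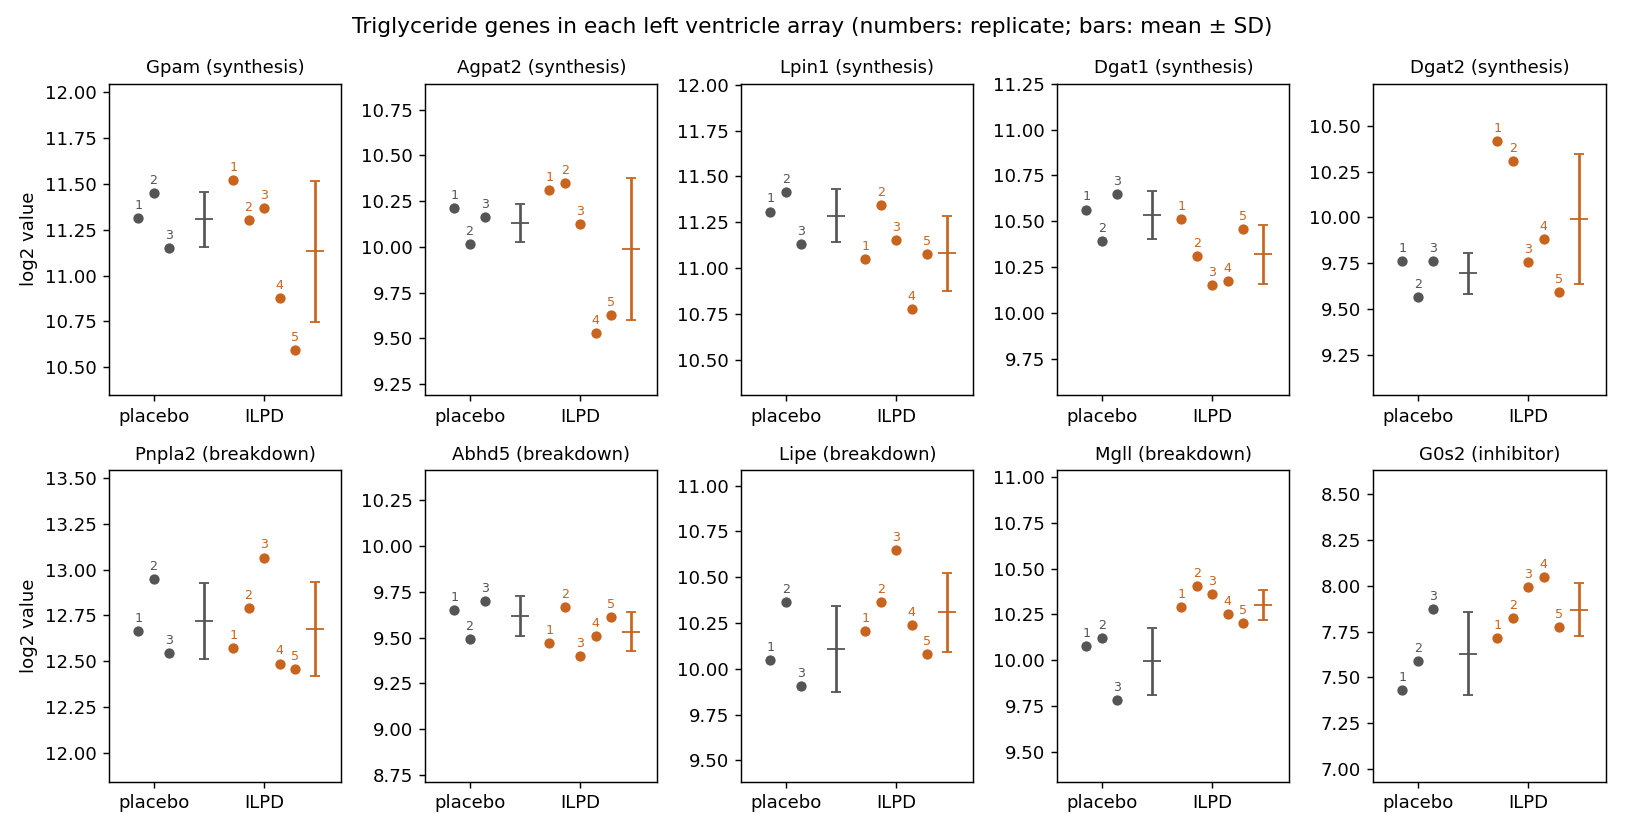
Log2 value of each of the 10 genes (vertical axis) in the 3 placebo and 5 ILPD arrays, each point an array with its replicate number, and bars giving mean ± SD; every panel spans the same log2 range. Mgll is the panel in which all ILPD points lie above all placebo points, and Gpam and Agpat2 are the panels in which ILPD arrays 4 and 5 lie far below the rest.

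Of the 5 synthesis genes, Gpam, Agpat2, Lpin1 and Dgat1 had negative differences and Dgat2 a positive one, and none passed the test. Gpam, the first acyltransferase of the pathway (probe set 10730898), read 11.32, 11.45 and 11.15 in placebo arrays 1 to 3. It read 11.52, 11.30, 11.37, 10.88 and 10.59 in ILPD arrays 1 to 5. The first 3 ILPD arrays lay within or just above the placebo range, while arrays 4 and 5 lay below every placebo array. The difference was -0.17 (SE 0.19, limma adjusted p = 0.696), with an interval from -0.60 to 0.25. It ran from -0.27 without ILPD array 1 to -0.038 without ILPD array 5.

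Agpat2, which makes phosphatidate and whose loss causes a lipodystrophy (probe set 10843838), read 10.21, 10.01 and 10.16 in placebo. The ILPD arrays read 10.31, 10.35, 10.13, 9.53 and 9.63. As for Gpam, arrays 4 and 5 were the low ones, and 2 other ILPD arrays were above every placebo array. The SD in ILPD was 0.39 for Agpat2 and 0.38 for Gpam, against 0.10 and 0.15 in placebo, and the Agpat2 means differed by -0.14 (SE 0.19, limma adjusted p = 0.757). Leaving out 1 array moved this to between -0.23 (without ILPD array 2) and -0.026 (without ILPD array 4). With ILPD arrays 4 and 5 left out, a step added after seeing the data, the difference was 0.092 for Gpam and 0.13 for Agpat2 (limma adjusted p = 0.706 and 0.491). These were the lowest ILPD arrays for both genes, so leaving them out had to raise both differences.

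Lpin1, a phosphatidate phosphatase that also acts as a transcriptional coactivator (probe set 10889269), read 11.31, 11.42 and 11.13 in placebo. It read 11.05, 11.34, 11.15, 10.78 and 11.08 in ILPD. No ILPD array exceeded the highest placebo array and 3 lay below the lowest. The means were 11.28 ± 0.14 (SD, n = 3) and 11.08 ± 0.20 (SD, n = 5), a difference of -0.20 (SE 0.12, limma adjusted p = 0.393), which was -0.13 without ILPD array 4.

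Dgat1 and Dgat2 catalyse the same last step but are unrelated in sequence, and they differed in opposite directions. Dgat1 (probe set 10904948) read 10.56, 10.39 and 10.65 in placebo and 10.51, 10.31, 10.15, 10.18 and 10.46 in ILPD. The ILPD values of arrays 2, 3 and 4 were below every placebo value. The difference was -0.21 (SE 0.10, limma adjusted p = 0.278, unadjusted p = 0.0516), with an interval from -0.43 to 0.0018. Dgat2 (probe set 10723866) read 9.76, 9.57 and 9.76 in placebo and 10.42, 10.31, 9.76, 9.88 and 9.59 in ILPD. Arrays 1 and 2 stood well above placebo, array 4 slightly above it, and arrays 3 and 5 within its range. The difference was 0.30 (SE 0.18, limma adjusted p = 0.418), with an interval from -0.09 to 0.69, the highest upper bound among the members, and was 0.19 without ILPD array 1.

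With both genes centred on their own mean, Dgat2 minus Dgat1 within an array was -0.28, -0.31 and -0.37 in placebo. It was 0.43, 0.52, 0.13, 0.23 and -0.34 in ILPD. In 4 of 5 ILPD arrays Dgat2 was thus higher against Dgat1 than in any placebo array, and array 5 lay inside the placebo range. This pair was singled out after its values were seen and was not tested.

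**Figure D2:**
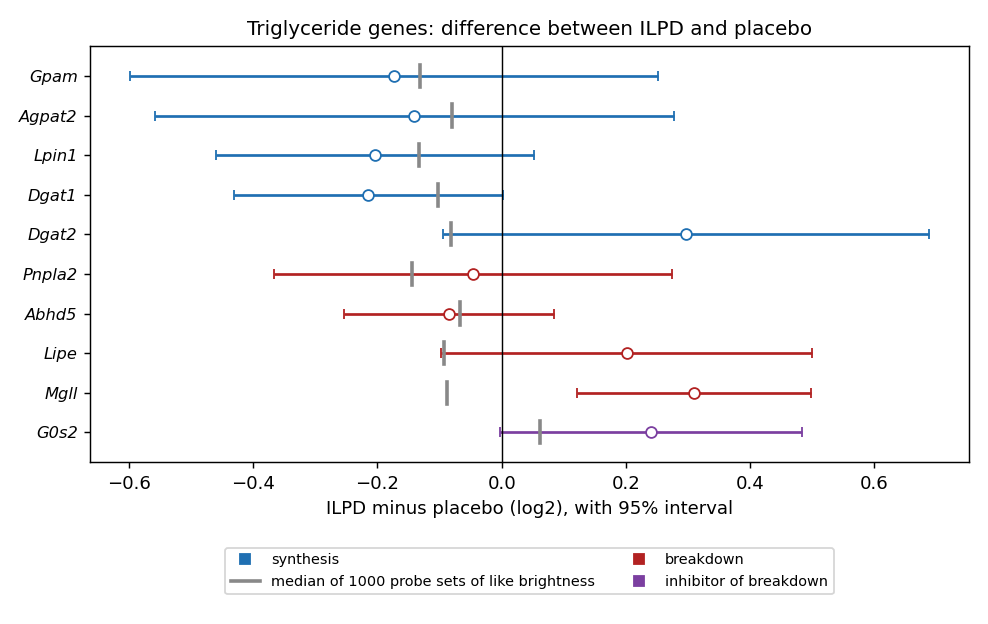
Difference between ILPD and placebo on the log2 scale (horizontal axis) for each of the 10 genes, with 95% intervals from limma; open circles did not pass an adjusted p of 0.05, and grey ticks give the median difference of the 1000 probe sets nearest in mean signal. Of the 10 intervals, that of Mgll (0.12 to 0.50) is the one that leaves out 0.

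Among the breakdown genes the first lipase and its activator showed no shift beyond their spread. Pnpla2 (probe set 10712317) read 12.67, 12.95 and 12.55 in placebo and 12.57, 12.79, 13.07, 12.49 and 12.46 in ILPD. Values of the groups were interleaved, with placebo array 2 and ILPD array 3 at the top. The difference was -0.05 (SE 0.14, limma adjusted p = 0.910), with an interval from -0.37 to 0.27, and its sign turned to 0.12 after either further normalization.

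Abhd5, the activator of Pnpla2 (probe set 10914066), had the smallest SE of the 10 genes. It read 9.65, 9.49 and 9.70 in placebo and 9.47, 9.67, 9.40, 9.51 and 9.61 in ILPD. The groups overlapped, with 2 ILPD arrays below the lowest placebo array, and the difference was -0.09 (SE 0.08, limma adjusted p = 0.613), which became -0.15 without placebo array 2 and -0.042 without placebo array 3. Its interval, from -0.25 to 0.08, was the narrowest of the members.

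Lipe, which cuts diacylglycerol (probe set 10719829), read 10.05, 10.37 and 9.91 in placebo and 10.21, 10.37, 10.65, 10.24 and 10.08 in ILPD. In ILPD 2 arrays were at or above the highest placebo array, which itself stood apart from the other placebo arrays. The difference was 0.20 (SE 0.13, limma adjusted p = 0.478), with an interval from -0.10 to 0.50. Single arrays moved it by over 1.5 times: dropping placebo array 2 gave 0.33, dropping placebo array 3 gave 0.10, and dropping ILPD array 3 gave 0.12.

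Mgll, which releases the last fatty acid and also degrades the endocannabinoid 2-arachidonoylglycerol (probe set 10857130), was the member with the smallest p. It read 10.08, 10.12 and 9.78 in placebo and 10.29, 10.41, 10.36, 10.25 and 10.20 in ILPD. All 5 ILPD arrays lay above all 3 placebo arrays, and the nearest values of the groups were 10.12 and 10.20. The means were 9.99 ± 0.18 (SD, n = 3) and 10.30 ± 0.08 (SD, n = 5), a difference of 0.31 (SE 0.08), or 1.24-fold, with an interval from 0.12 to 0.50. It did not pass the test (limma adjusted p = 0.0855, unadjusted p = 0.0044). The two-sided exact permutation test on this value alone gave p = 0.0357, unadjusted, the smallest that 5 against 3 samples can give. Placebo array 3 was the lowest, and without it the difference was 0.20 (limma adjusted p = 0.204). Over 14 alternatives the difference stayed positive, between 0.20 and 0.39, and the adjusted p lay between 0.0567 and 0.204.

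Probe sets as bright as Mgll were shifted slightly downward in ILPD. The median over the 1000 nearest in mean signal was -0.09, so the Mgll difference was opposite in sign to that of its neighbours in brightness. The same held for Dgat2 (0.30 against a local median of -0.08) and Lipe (0.20 against -0.09). For the other bright members this local median lay between -0.14 (Pnpla2) and -0.07 (Abhd5). It was -0.13 for Gpam, -0.08 for Agpat2 and -0.13 for Lpin1, whose own differences were -0.17, -0.14 and -0.20. For G0s2, the dimmest member, the local median was 0.06. Quantile and cyclic loess normalization brought the difference to -0.061 and -0.053 for Gpam, -0.081 and -0.065 for Agpat2, -0.097 and -0.085 for Lpin1, and -0.13 and -0.12 for Dgat1. It became -0.053 and -0.035 for Abhd5, 0.16 and 0.18 for G0s2, and rose to 0.34 and 0.36 for Dgat2. For Lipe it rose to 0.27 and 0.29, and for Mgll to 0.365 and 0.39. Except for Pnpla2, no member changed its sign under these normalizations.

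Promoter windows in RefSeq (build GRCr8), from 250 bases before to 50 bases after the annotated start, were found for 7 of the 10 genes, and Dgat1, Dgat2 and Lipe had none. They were searched on both strands for AGGTCA, the element read by many nuclear receptors, for a pair of it 1 base apart in the same orientation (DR1, the arrangement used by PPARs), for TATAAA, and for the E-box CACGTG, read by basic helix-loop-helix factors. The E-box is its own complement, and any DR1 match contains AGGTCA matches. A match is a string of letters and not a bound site. Mgll held CACGTG, which 6.42% of 33469 windows held, and Abhd5 and G0s2 each held AGGTCA on the minus strand, which 16.2% held. None of the 7 windows held DR1, found in 0.0538% of windows, or TATAAA, found in 14.2%.

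The upstream parts of the windows of Mgll and Abhd5 are shown because they are the breakdown genes with a match before the start. The Mgll bases lie on the plus strand at chr4:122749186-122749435 with the E-box in capitals, beginning 74 bases before the start. The Abhd5 bases lie on the plus strand at chr8:130877622-130877871 with the complement of AGGTCA in capitals, beginning 207 bases before the start.
Mgll: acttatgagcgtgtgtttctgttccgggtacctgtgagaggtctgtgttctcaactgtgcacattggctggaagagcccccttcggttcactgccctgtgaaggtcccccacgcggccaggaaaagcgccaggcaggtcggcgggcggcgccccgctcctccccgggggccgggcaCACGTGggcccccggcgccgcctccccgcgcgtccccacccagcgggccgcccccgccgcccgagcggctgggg
Abhd5: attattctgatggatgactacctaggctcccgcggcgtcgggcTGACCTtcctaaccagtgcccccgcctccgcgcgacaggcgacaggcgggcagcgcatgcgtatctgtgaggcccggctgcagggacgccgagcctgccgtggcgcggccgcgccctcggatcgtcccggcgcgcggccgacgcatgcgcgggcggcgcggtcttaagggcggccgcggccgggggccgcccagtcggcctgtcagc

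G0s2, the inhibitor of Pnpla2 (probe set 10770807), read 7.43, 7.59 and 7.87 in placebo and 7.71, 7.82, 7.99, 8.05 and 7.78 in ILPD. Placebo array 3 lay above 3 of the ILPD arrays, so the groups overlapped. The difference was 0.24 (SE 0.11, limma adjusted p = 0.278, unadjusted p = 0.0519), with an interval from -0.0024 to 0.48. It was 0.14 without placebo array 1 and 0.36 without placebo array 3. Set against Pnpla2 within each array, both centred on their own means, G0s2 was at -0.33, -0.45 and 0.24 in placebo and at 0.05, -0.06, -0.16, 0.47 and 0.23 in ILPD. These ranges overlapped as well.

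Synthesis was set beside breakdown in each array by centring every gene on its mean over all 8 arrays and averaging within the role. The 5 synthesis genes averaged 0.10, 0.03 and 0.03 in placebo and 0.23, 0.19, -0.02, -0.29 and -0.27 in ILPD. The ILPD arrays thus spread to both sides of placebo, with an SD of 0.24 against 0.04. Pnpla2, Abhd5, Lipe and Mgll together averaged -0.06, 0.06 and -0.19 in placebo and -0.03, 0.14, 0.20, -0.05 and -0.08 in ILPD. Here no ILPD array lay below the placebo range, and ILPD arrays 2 and 3 lay above it.

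Synthesis minus breakdown was 0.15, -0.03 and 0.22 in placebo and 0.26, 0.05, -0.22, -0.24 and -0.19 in ILPD. In 3 of 5 ILPD arrays the balance lay below every placebo array, and array 1 lay above every placebo array. The group means were 0.11 ± 0.13 (SD, n = 3) and -0.07 ± 0.22 (SD, n = 5), a shift of -0.18 that is within the spread of the ILPD arrays. G0s2 is on neither side here. The shift was -0.13 with G0s2 counted beside synthesis, and -0.21 with the median over genes in place of the mean. The median gene difference was -0.17 for synthesis and 0.08 for breakdown, against 0.02 for all probe sets. After quantile and cyclic loess normalization the synthesis median was -0.081 and -0.065 and the breakdown median 0.19 and 0.20, while synthesis minus breakdown was -0.18 under both. Positive differences were seen for 1 of 5 synthesis genes and 2 of 4 breakdown genes, against 58.5% of all probe sets. That share and the median of 0.02 cover probe sets of all brightness. The local medians of the synthesis and breakdown genes were all negative, between -0.14 and -0.07. These role values are a description without a test, because the genes were selected with earlier results of these arrays known. With ILPD arrays 4 and 5 left out, the synthesis median was 0.092, the breakdown median 0.19 and synthesis minus breakdown -0.086. Those arrays were left out after they were seen to be lowest for Gpam and Agpat2.

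**Figure D3:**
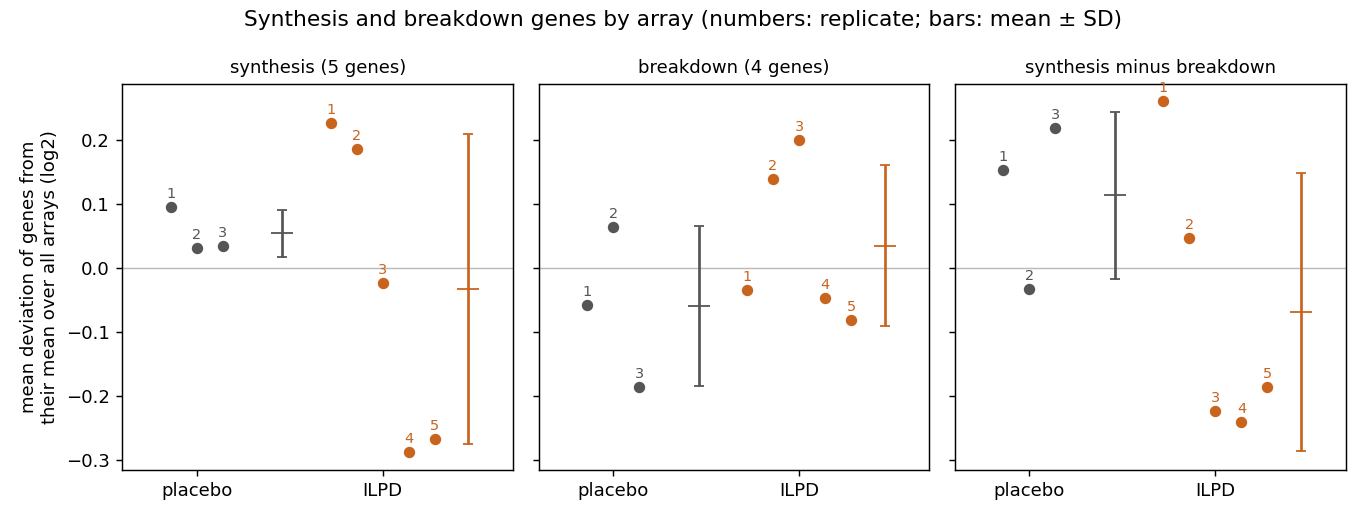
Mean deviation of the 5 synthesis genes, of the 4 breakdown genes, and synthesis minus breakdown (vertical axis, log2) in each placebo and ILPD array, with replicate numbers and mean ± SD. The ILPD arrays run from -0.29 to 0.23 for synthesis, around a placebo group that stays between 0.03 and 0.10.

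The members were also compared with each other across the arrays. Over the 45 pairs of members and 8 arrays, 6 pairs had an unadjusted exact permutation p under 0.05 for Pearson's r, and 0 had an adjusted p under 0.05 (Benjamini-Hochberg over the 45). All points share their array, and so any array-wide shift. Lipe and Dgat1 ran opposite to each other, with r = -0.833 (exact permutation p = 0.00965, adjusted 0.245) and rho = -0.905 (exact p = 0.00456, adjusted 0.205). Leaving out the arrays farthest from the Dgat1 median, ILPD 3 and 4, gave r = -0.912. With each group centred on its mean r was -0.79, and in the ILPD arrays alone it was -0.708.

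Pnpla2 and Lipe, which act in sequence, were high in the same arrays, with r = 0.811 (exact permutation p = 0.0125, adjusted 0.245) and rho = 0.667 (exact p = 0.0831, adjusted 0.623). Without placebo array 2 and ILPD array 3, the arrays highest for Pnpla2, r was 0.452. Leaving them out also narrows the range of Pnpla2 and leaves 6 arrays, so it cannot show what the relation rests on. After centring each group on its mean r was 0.968. Gpam and Agpat2 were both low in ILPD arrays 4 and 5, which stood apart. Over the other 6 arrays their r was -0.0142, but these cover a narrower range and are too few to settle whether a relation remains. These pairs were picked after their values were seen.

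**Figure D4:**
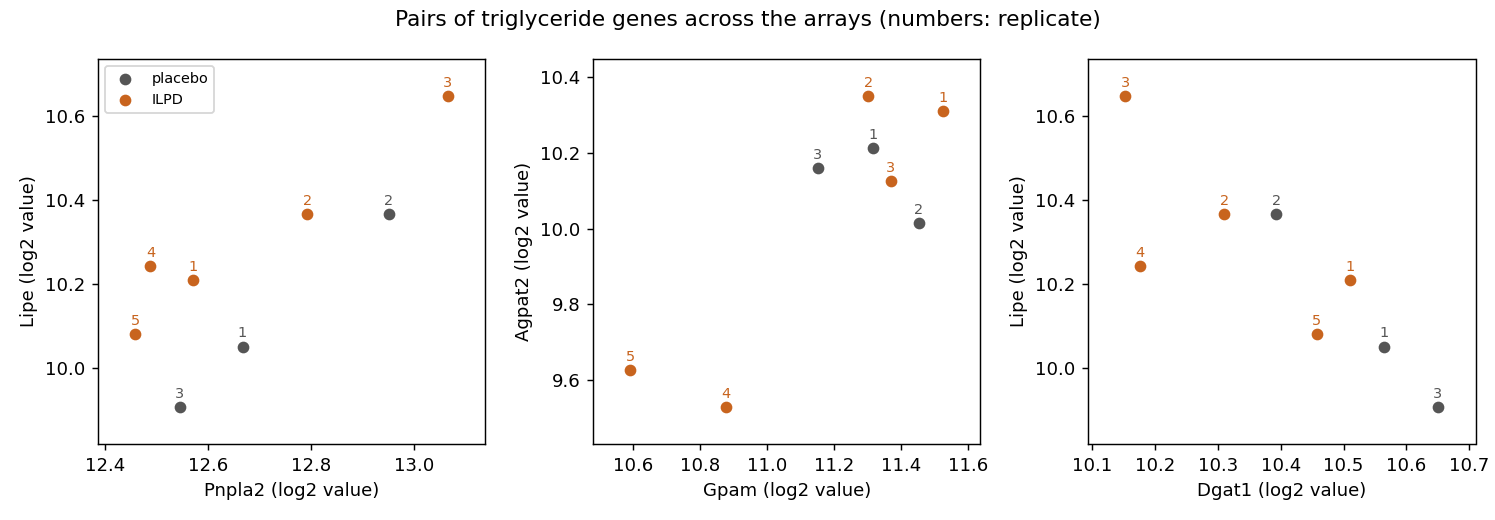
Log2 values of Lipe against Pnpla2, Agpat2 against Gpam, and Lipe against Dgat1 in the 8 arrays, with replicate numbers, placebo in grey and ILPD in orange. Placebo array 2 and ILPD array 3 sit at the top of the first panel, and ILPD arrays 4 and 5 sit apart in the second.

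Of 37 further genes of triglyceride handling, 30 were named on the array, and 1 rose and 1 fell among them. The background was 1.96% of all probe sets higher and 0.857% lower. Agpat1, another enzyme of the step that Agpat2 catalyses, read 10.94, 11.10 and 11.05 in placebo and 10.53, 10.64, 10.71, 10.45 and 10.75 in ILPD. All ILPD arrays were below all placebo arrays. It fell by 0.42 (SE 0.08, limma adjusted p = 0.0254), a 1.34-fold difference. The call was lost without placebo array 2 (-0.38, adjusted p = 0.104), placebo array 3 (-0.41, 0.0898) or ILPD array 2 (-0.42, 0.0553). It was also lost after quantile (-0.32, adjusted p = 0.0772) or cyclic loess (-0.31, 0.0718) normalization and with the replicate number as a block (-0.41, 0.0514).

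Ces1d, a carboxylesterase with triglyceride hydrolase activity, read 7.81, 7.67 and 7.59 in placebo and 7.98, 8.04, 7.95, 7.97 and 7.91 in ILPD. It rose by 0.28 (SE 0.06, limma adjusted p = 0.0424), a 1.22-fold difference without overlap. The gene belongs to a family of close copies, and cross-hybridisation between them was not tested. Its call was lost in 10 of 14 alternatives, among them leaving out placebo array 2 (adjusted p = 0.135), placebo array 3 (0.128) or any of ILPD arrays 1 to 4 (0.0631 to 0.0913). Over the 14 alternatives the difference lay between 0.21 and 0.35.

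The remaining neighbours did not pass. Groups did not overlap for 2 upward and 3 downward genes of the 30, against 7.95% and 4.42% of all probe sets. Besides Agpat1 the downward ones were Lpin2, a relative of Lpin1, with -0.26 (SE 0.07, limma adjusted p = 0.0962), and Lpl, the lipase that frees fatty acids from circulating lipoproteins, with -0.12 (SE 0.06, adjusted p = 0.315). The local median for probe sets as bright as Lpl was -0.14. Bscl2 (seipin, of droplet assembly) was the other upward one, with 0.15 (adjusted p = 0.213).

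Angptl4, an inhibitor of Lpl, had the largest difference of the 30, 0.95 (SE 0.36, limma adjusted p = 0.206). It read 10.05, 9.66 and 8.24 in placebo and 10.60, 10.37, 10.44, 10.31 and 9.59 in ILPD, and without placebo array 3 the difference was 0.41. The droplet coat genes of heart muscle, Plin2 and Plin5, differed by -0.03 and 0.02 (SE 0.08 and 0.13, limma adjusted p = 0.888 and 0.967), with intervals from -0.20 to 0.14 and from -0.28 to 0.31. For Plin2 the sign was positive after quantile or cyclic loess normalization. The droplet gene Fitm1 differed by -0.24, the acyltransferase gene Agpat4 by -0.17, and Gk (glycerol kinase), Plin1, Cidec and Mogat2 by 0.16, 0.13, 0.15 and 0.11, with adjusted p between 0.277 and 0.434. Mogat2 was dim, at 6.18 to 6.47 over all arrays, below the array medians, and its local median was 0.04.

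**Figure D5:**
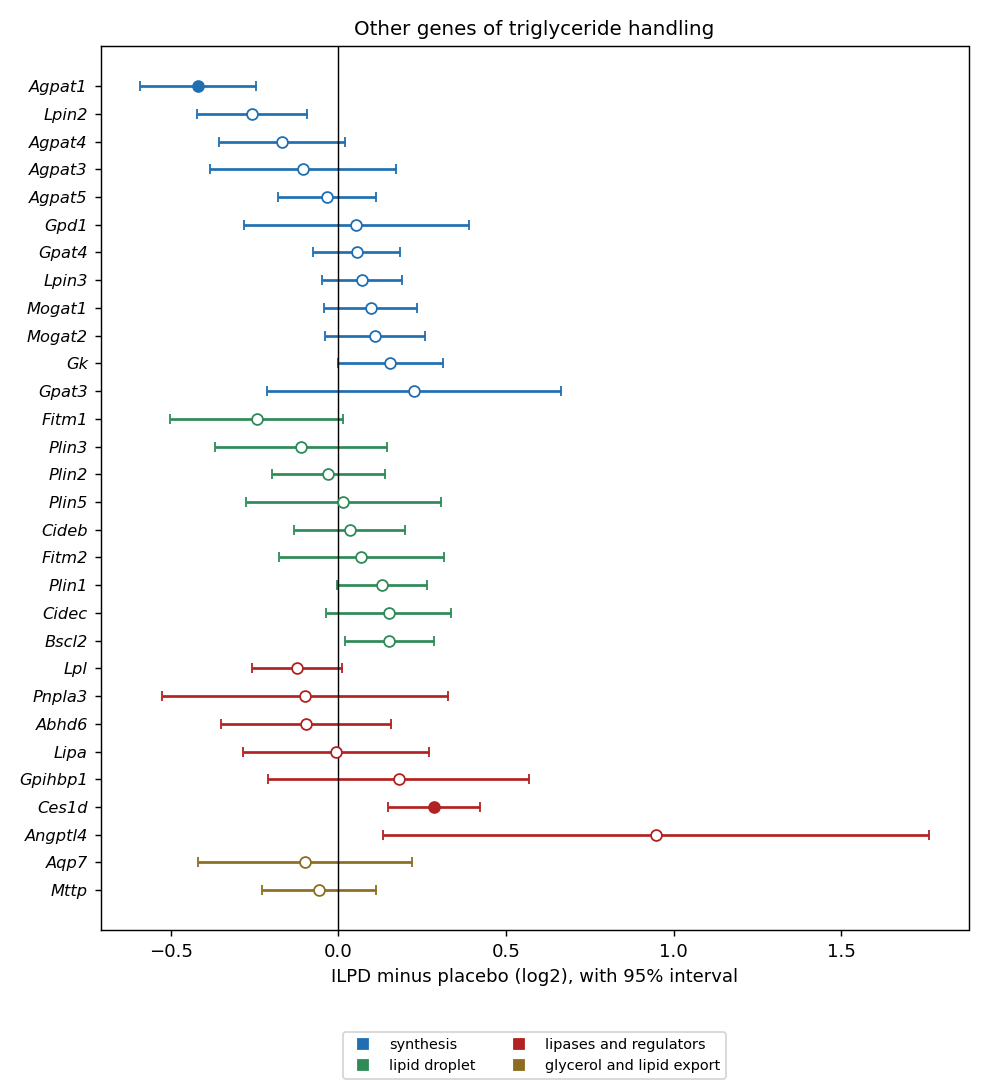
Difference between ILPD and placebo (log2, horizontal axis, 95% intervals from limma) for 30 further genes of triglyceride synthesis, lipid droplets, lipases and export, coloured by role. Filled circles passed an adjusted p of 0.05: Agpat1 at -0.42 and Ces1d at 0.28.

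Several members are also abundant in fat cells, and whole ventricle was assayed, so fewer cells of a type and less RNA per cell cannot be told apart. The labelled tissue matched its markers: Myh6 read 13.58 to 13.96 and Tnnt2 13.86 to 14.09 over all arrays, while the skeletal muscle gene Myh4 read 6.22 to 6.55. Of 13 adipocyte markers 10 had a positive difference, against 58.5% of all probe sets. Of the 13, 1 rose and 0 fell, against 1.96% and 0.857% of all probe sets. The marker that rose was Fabp4, which endothelium also expresses, by 0.82 (limma adjusted p = 0.0173). The summed level of the 13 was 11.64 to 11.93 in placebo and 12.01 to 12.27 in ILPD on the log2 scale. Without Fabp4 the sum over the other 12 was 11.03 to 11.12 in placebo and 11.08 to 11.22 in ILPD, and the groups overlapped. The defining markers were near or below the array medians: Adipoq read 6.50 to 6.67 in placebo and 6.55 to 7.24 in ILPD, Plin1 6.82 to 7.13 and Cidec 6.68 to 7.05 over all arrays. The local median was 0.05 for Adipoq and 0.06 for Plin1 and for Cidec. Adipoq and Cidec were highest in ILPD arrays 1 and 3, and Plin1 and Dgat2 in ILPD arrays 1 and 2. The part of fat cells in the member values was not tested.

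Of 7 neutrophil markers, 7 had a positive difference, against 58.5% of all probe sets, and 0 passed the test. Their median difference was 0.74, the largest among the cell types listed. The differences ran from 0.01 for Mpo to 1.32 for Mmp8 (limma adjusted p = 0.0511 for Mmp8). Their summed level was 10.72 to 11.49 in placebo and 11.25 to 12.41 in ILPD. Of 10 cardiomyocyte markers, 10 had a negative difference and 0 passed, with sums of 17.15 to 17.23 in placebo and 16.98 to 17.20 in ILPD. Their median difference was -0.12, where the median over probe sets as bright as these was -0.14. Macrophage sums were 11.84 to 12.10 and 11.87 to 12.17, endothelial sums 12.87 to 13.07 and 12.95 to 13.13, fibroblast sums 13.97 to 14.02 and 13.84 to 14.03, and skeletal muscle sums 8.97 to 9.04 and 9.004 to 9.093, with no marker past the threshold. Their part in the values of Mgll and the other members was not tested.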

How the data were processed

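The authors deposited 1 log2 value per probe set and array; the scale was read from the value range (4.77 to 14.8). The labels' protocols name total RNA, biotin labelling and Affymetrix hybridisation, and the submitters' processing notes name R 2.14.2; their normalization is not given in these sources. No detection or background signal was used. Arrays correlated at 0.989 to 0.995 over all probe sets. Symbols came from the platform annotation (15209 probe sets with 1 symbol, 306 with several, 13311 with none here), with neighbours and markers updated by gene ID through RefSeq GRCr8 (15178 matched).

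limma 3.58.1 in R 4.3.3 (lmFit, eBayes) was fitted to all 28826 probe sets, two-sided, without covariates, and tested on simulated data. Samples were grouped by their titles. The members and all lists were chosen with earlier results of these data known. Beside the members, neighbours past the threshold, the 10 others with the smallest p and Plin2, Plin5, Lpl and Hilpda (the last not named on the array) are named. The brightest probe set stood for a gene. Alternatives were a robust prior with intensity trend, quantile or cyclic loess normalization, dropping the dimmest 40%, arrayWeights, a block for the replicate number, leaving out each array and, added after seeing the data, leaving out ILPD arrays 4 and 5 together. The labels do not state that the replicate numbers pair samples. Same-numbered samples deviated with correlations of 0.221, -0.0642 and -0.098, which are too few to settle whether they are paired. Figures used matplotlib 3.10.9 in Python 3.11.15.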

Additional observations from a re-analysis of the deposited data

Results flagged for a closer look

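In 27 genes and role averages the 5 ILPD arrays were searched for a single value far from the others (its gap to the nearest array over the whole range, above 0.710), which chance gives in about 1 of 20. ILPD array 5 stood apart in 3 neighbours and in no member: it was lowest for Angptl4 (9.59, ratio 0.711) and for Cidec (6.68, ratio 0.765), and highest for Fitm1 (11.29, ratio 0.766).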

How the results depend on the processing

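In all 14 alternatives, 8 of which leave out 1 array, no member passed in limma, and 132 of 140 member values kept their direction and side. At an adjusted p of 0.1, 1 member was higher. Calls over all probe sets were 484 after quantile normalization and 172 to 975 without 1 array, against 811. Neighbour calls were 0 higher and 0 lower after quantile or cyclic loess normalization, 0 higher with the intensity trend, and 0 to 1 in each direction without 1 array. After quantile and cyclic loess normalization the difference became 0.12 and 0.12 for Pnpla2, 0.036 and 0.075 for Lpl, and 0.091 and 0.094 for Plin2. Without 1 array it ran from -0.14 to 0.069 for Pnpla2, from -0.11 to 0.024 for Plin2 and from -0.083 to 0.11 for Plin5, with a sign change in each. With the replicate block, 459 probe sets, 0 neighbours higher and 0 lower passed, the synthesis median was 0.092, and Gpam (0.092), Agpat2 (0.13) and Pnpla2 (0.089) turned positive; that median and these 3 differences were the same with ILPD arrays 4 and 5 left out and no block, an alternative chosen after seeing the data, in which 635 probe sets, 0 neighbours higher and 1 lower passed. The block holds the 6 arrays whose number both groups share, so it too leaves out ILPD arrays 4 and 5. Without 1 array the synthesis median ran from -0.22 to -0.05, the breakdown median from 0.029 to 0.20, and synthesis minus breakdown from -0.26 to -0.13. Each member has 1 probe set, so averaging of probe sets did not arise and was not run. The number of arrays limits precision: member intervals reached from -0.60 to 0.69.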
